A study of Mus musculus with 2 samples.

Results

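The replication-dependent histone genes of the large cluster on mouse chromosome 13 were read for promoter accessibility in DNase-seq libraries of urinary bladder. Their members were taken as every protein-coding gene on chromosome 13 of the GENCODE M21 annotation with a symbol that starts with Hist1h, which gave 54 of 21853 protein-coding genes. Of these, 6 encode H1 linker histones, 13 encode H2A, 15 encode H2B, 9 encode H3 and 11 encode H4. DNase I cuts DNA that is free of nucleosomes, so a dense run of cuts, a peak, marks accessible chromatin, and a short protected stretch inside such a run, a footprint, marks bases shielded from the enzyme. The tissue was urinary bladder of adult female mice, 18 to 20 months old, of the strain B6CASTF1/J, whose parents are C57BL/6 and CAST animals. There is 1 group with 2 libraries, labelled as biological replicates 1 and 2 under the same donor record, and no second condition. Nothing in the labels says whether the tissue samples came from separate animals, so the SD over n = 2 may be technical.

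Core histones H2A, H2B, H3 and H4 form the protein spool of the nucleosome, and H1 binds the linker DNA where it enters and leaves. Most of their genes lie in clusters, lack introns and are transcribed in S phase, when new DNA needs histones, within nuclear structures called histone locus bodies that hold the coactivator NPAT. HINFP binds the site II element of H4 promoters, and the messenger RNA ends in a stem-loop, bound by SLBP, in place of a poly(A) tail.

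The promoter sequences below carry the main observations and are shown 5′ to 3′ as the 150 bases before the RefSeq start of each gene, on the gene's own strand, in the GRCm38.p6 assembly, the same as mm10. Capitals mark bases that lay inside a deposited footprint in both libraries. A RefSeq start was matched for 50 of the 54 genes. The H4 promoters come first because they had the strongest peaks. Hist1h4c (chr13:23698459-23698608, minus strand), Hist1h4d (chr13:23581418-23581567, plus strand), Hist1h4i (chr13:22041363-22041512, minus strand) and Hist1h4h (chr13:23530894-23531043, plus strand) held the site II letters GGTCCG touching such a stretch, in Hist1h4h across the start, so that the printed bases end within the letters. Hist1h4a (chr13:23761250-23761399, minus strand) held no GGTCCG. Hist1h4f (chr13:23551669-23551818, minus strand) held the letters with no base covered in both libraries.
Hist1h4c: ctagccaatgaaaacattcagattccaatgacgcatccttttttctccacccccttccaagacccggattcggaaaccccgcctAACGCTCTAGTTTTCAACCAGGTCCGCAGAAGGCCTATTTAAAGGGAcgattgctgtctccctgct
Hist1h4d: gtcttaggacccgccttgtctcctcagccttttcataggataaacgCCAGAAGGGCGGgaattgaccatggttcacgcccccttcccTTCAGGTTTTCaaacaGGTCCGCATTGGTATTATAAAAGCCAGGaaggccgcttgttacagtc
Hist1h4i: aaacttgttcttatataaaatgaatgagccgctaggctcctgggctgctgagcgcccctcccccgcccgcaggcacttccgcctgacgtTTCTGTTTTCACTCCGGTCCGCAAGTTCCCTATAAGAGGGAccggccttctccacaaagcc
Hist1h4h: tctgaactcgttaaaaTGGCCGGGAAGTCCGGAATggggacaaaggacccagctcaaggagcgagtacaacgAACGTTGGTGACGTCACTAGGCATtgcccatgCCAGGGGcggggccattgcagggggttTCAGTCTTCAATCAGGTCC
Hist1h4a: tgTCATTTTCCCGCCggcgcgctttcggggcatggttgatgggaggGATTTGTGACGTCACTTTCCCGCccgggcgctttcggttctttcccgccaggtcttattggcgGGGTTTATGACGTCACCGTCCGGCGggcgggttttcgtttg
Hist1h4f: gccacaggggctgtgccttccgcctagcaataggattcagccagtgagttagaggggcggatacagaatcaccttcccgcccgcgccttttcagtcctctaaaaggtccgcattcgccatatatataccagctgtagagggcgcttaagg

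The next sequences lie between the RefSeq starts of divergently transcribed H2A and H2B genes and are given on the plus strand. The first and second had the strongest shared peaks among such pairs, at chr13:21787249-21787487 and chr13:22042950-22043197. The third lies in a copied segment with no called peak, at chr13:21810200-21810366, and the fourth serves the testis genes Hist1h2ba and Hist1h2aa, at chr13:23934157-23934436.
Hist1h2an/Hist1h2bp: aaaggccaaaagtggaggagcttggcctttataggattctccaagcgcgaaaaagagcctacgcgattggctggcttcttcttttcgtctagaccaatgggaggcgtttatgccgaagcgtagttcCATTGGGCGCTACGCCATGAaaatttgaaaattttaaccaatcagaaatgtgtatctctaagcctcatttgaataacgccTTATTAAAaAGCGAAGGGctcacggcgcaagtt
Hist1h2ag/Hist1h2bj: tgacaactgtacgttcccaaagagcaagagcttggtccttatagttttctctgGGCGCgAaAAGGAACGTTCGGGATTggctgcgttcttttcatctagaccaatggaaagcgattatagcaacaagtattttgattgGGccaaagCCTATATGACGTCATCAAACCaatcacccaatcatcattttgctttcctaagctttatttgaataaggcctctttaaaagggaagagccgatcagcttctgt
Hist1h2bq/Hist1h2ao: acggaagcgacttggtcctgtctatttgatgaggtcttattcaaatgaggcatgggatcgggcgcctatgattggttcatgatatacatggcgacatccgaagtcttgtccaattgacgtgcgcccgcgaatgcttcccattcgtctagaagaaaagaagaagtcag
Hist1h2ba/Hist1h2aa: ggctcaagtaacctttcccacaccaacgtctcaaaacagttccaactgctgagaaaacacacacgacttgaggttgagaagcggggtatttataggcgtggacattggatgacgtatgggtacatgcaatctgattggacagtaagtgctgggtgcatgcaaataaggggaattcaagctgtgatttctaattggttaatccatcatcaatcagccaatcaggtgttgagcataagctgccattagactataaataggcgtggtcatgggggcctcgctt

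The last set shows the strongest H3 promoter, Hist1h3e (chr13:23562386-23562535, minus strand), an H1 promoter with a peak, Hist1h1a (chr13:23763518-23763667, plus strand), and that of the testis linker histone gene Hist1h1t (chr13:23695661-23695810, plus strand), which had no peak.
Hist1h3e: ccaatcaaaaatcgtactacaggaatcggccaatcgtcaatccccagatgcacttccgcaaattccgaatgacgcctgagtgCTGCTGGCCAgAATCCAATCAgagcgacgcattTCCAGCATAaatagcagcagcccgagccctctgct
Hist1h1a: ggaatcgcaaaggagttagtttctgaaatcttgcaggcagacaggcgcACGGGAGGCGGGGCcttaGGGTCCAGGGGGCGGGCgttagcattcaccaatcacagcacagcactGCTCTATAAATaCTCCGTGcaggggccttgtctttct
Hist1h1t: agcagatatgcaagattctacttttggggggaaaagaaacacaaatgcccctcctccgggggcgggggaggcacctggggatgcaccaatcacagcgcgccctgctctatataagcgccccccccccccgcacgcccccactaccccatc

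The libraries held 84591 peaks in replicate 1 and 112174 in replicate 2. Peak signal is deposited as a scaled count, and the median peak held 96 counting steps in replicate 1 and 86 in replicate 2, while the total depth is unknown. A promoter is here 500 bp either side of an annotated transcription start, and its signal is that of the strongest peak touching it, with 0 for no peak. As a check of the tissue, all 8 urothelial marker genes and all 4 smooth muscle marker genes had a promoter peak in both libraries, against 61.4% of all protein-coding genes. Median signals in replicates 1 and 2 were 2.22 and 2.05 for urothelium and 0.793 and 0.862 for smooth muscle. The smooth muscle medians lay below the 1.31 and 1.41 of all protein-coding genes. Those of urothelium lay below the 3.30 and 3.43 of all genes with a peak, so the check is weak. None of 4 leukocyte markers had one, and of 5 male germ cell markers 2 had one in replicate 1 and 1 did in replicate 2. The other 3 had none in either library. The germ cell marker with a peak in both, Dazl, had 3.30 and 4.12. Its mean of 3.71 lay above the highest urothelial mean, 3.02 at Gata3. All 6 markers of proliferating cells had a peak in both libraries, with medians of 5.21 and 6.64. In bulk tissue, accessibility in fewer cells and lower accessibility per cell cannot be told apart.

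Most of the cluster was accessible. A promoter peak was called at 45 of the 54 histone genes in replicate 1 and at the same number in replicate 2, and these were the same 45 genes, 83.3%. Over all protein-coding genes the share was 62.6% in replicate 1, 64.6% in replicate 2 and 61.4% in both. The other 9 histone genes had a peak in neither library. The median signal over all 54 members was 1.68 in replicate 1 and 2.44 in replicate 2, against 1.31 and 1.41 over all protein-coding genes. Among genes with a peak, the histone genes were the weaker set, with medians of 2.11 and 2.81, against 3.30 and 3.43 over all genes with a peak. Thus peaks were frequent in the cluster and mostly of moderate size, and 9 of the 54 members lay above the median of all genes with a peak in both libraries. No test between families was made, since members share their libraries and are not replicates.

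H4 genes had the strongest promoters of the cluster. All 11 had a peak in both libraries, with a median of 3.89 in replicate 1 and 4.84 in replicate 2. Hist1h4c, at chr13:23697635-23698454 on the minus strand, had 9.48 in replicate 1 and 11.77 in replicate 2, a mean of 10.6 ± 1.62 (SD, n = 2), and more signal than 97.3% and 99.4% of all protein-coding genes. Hist1h4d, at chr13:23581598-23582735 on the plus strand, had 6.51 and 10.29, a mean of 8.40 ± 2.67. Hist1h4a, at chr13:23760692-23761230 on the minus strand, had 8.03 and 7.28, a mean of 7.66 ± 0.531. These H4 genes exceeded every member of the other families in both libraries, while their own order was not the same in each library, with Hist1h4a second in replicate 1 and Hist1h4d second in replicate 2. Hist1h4h followed with 6.62 and 8.46, Hist1h4i with 5.18 and 7.24, and Hist1h4b with 3.89 and 4.84. At the low end were Hist1h4j with 1.40 and 1.26, Hist1h4m with 1.20 and 1.41, and Hist1h4n with 0.614 and 0.760. Within the family, the highest mean was 15.5 times the lowest.

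H3 genes were also accessible, at lower signal. All 9 had a peak in both libraries, with medians of 1.67 and 2.44. The count was 8 of 9 with 250 bp either side of the start, and 7 of 9 with the shorter deposited peak list or with equal numbers of the strongest peaks. Under the last 2 choices the H4 count was 10 of 11. The share over all protein-coding genes was not recounted under these choices. Hist1h3e led with 5.18 in replicate 1 and 4.64 in replicate 2, a mean of 4.91 ± 0.385. Hist1h3b had 2.20 and 3.52, a mean of 2.86 ± 0.931, and Hist1h3c had 1.70 and 3.76, a mean of 2.73 ± 1.46. The order of Hist1h3b and Hist1h3c turned between the libraries, and their means differed by less than either SD. The lowest were Hist1h3d with 0.759 and 0.848 and Hist1h3i with 0.443 and 0.786.

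Most H2A and H2B genes had moderate peaks, and several had none. A peak in both libraries was called at 9 of 13 H2A genes, 69.2%, with a median of 1.40 and 1.502 over all 13. It was called at 12 of 15 H2B genes, 80%, with a median of 1.40 and 1.85 over all 15. Over all protein-coding genes the share was 61.4%. By the mean of both libraries, the 3 leading H2A genes and the 3 leading H2B genes formed 3 divergent pairs. The windows of paired genes overlap and the same peak gave both their value, so the matching ranks follow from the counting rule. Hist1h2an and Hist1h2bp shared a peak of 4.03 in replicate 1 and 4.93 in replicate 2, Hist1h2ag and Hist1h2bj one of 3.29 and 4.41, and Hist1h2ah and Hist1h2bk one of 2.41 and 3.49. Among H2B genes outside such pairs, Hist1h2bm had 1.08 and 1.33 and Hist1h2bb 1.19 and 1.20.

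H1 linker genes had peaks about as often as all protein-coding genes. Of 6, 4 had a peak in both libraries, 66.7%, against 61.4% of all protein-coding genes. The median over all 6 was 1.38 and 1.47. Hist1h1e had 3.23 in replicate 1 and 3.20 in replicate 2, a mean of 3.22 ± 0.0232. Hist1h1c had 3.30 and 3.10, a mean of 3.20 ± 0.140, so these 2 genes differed by less than the spread between libraries. Hist1h1a had 2.11 and 2.35, and Hist1h1b had 0.648 and 0.583. Hist1h1d and Hist1h1t had no peak in the window.

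**Figure D1:**
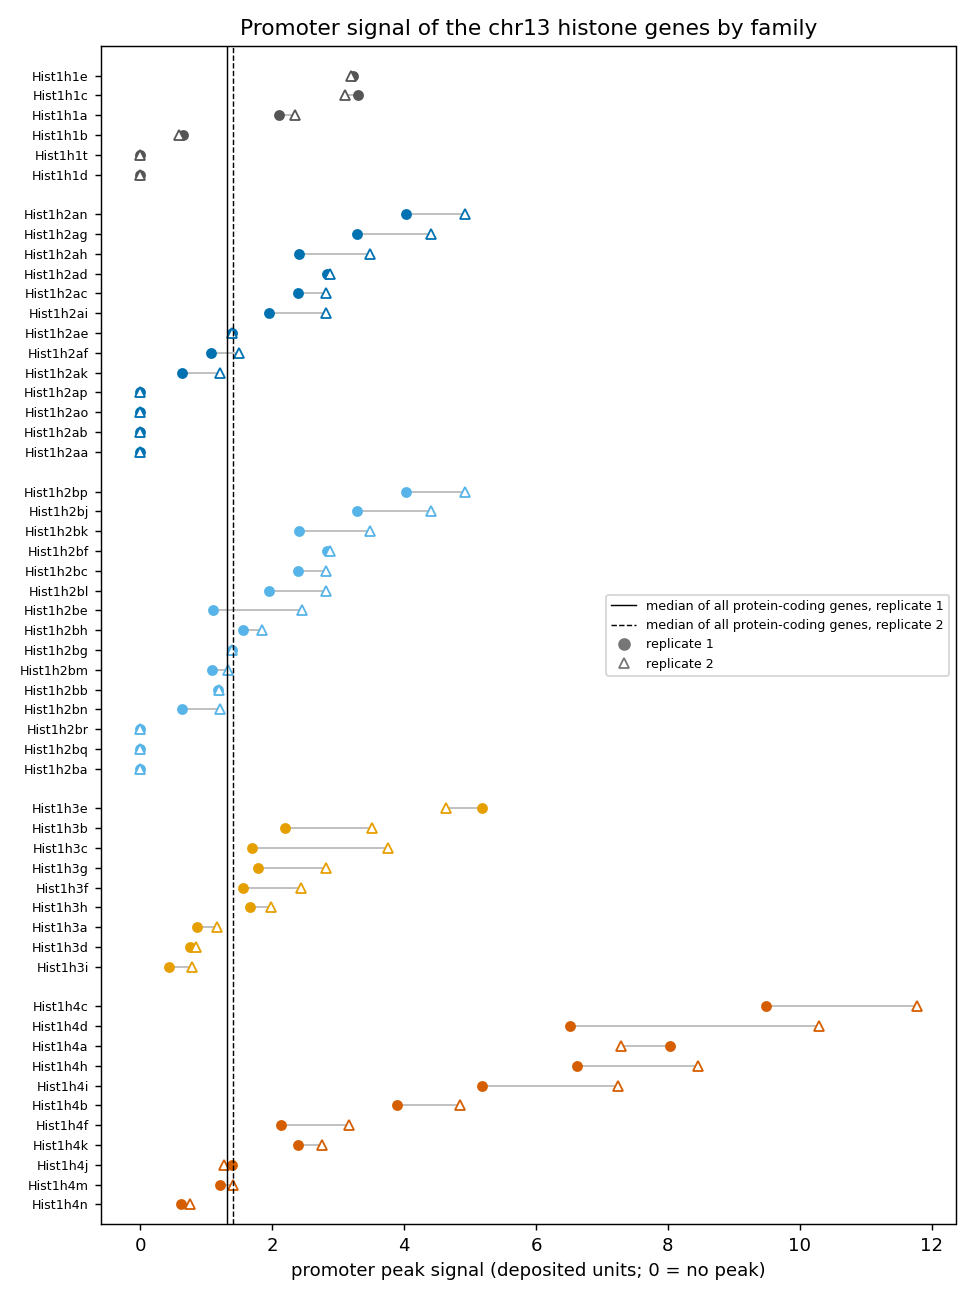
Promoter signal of each chr13 histone gene (x axis, deposited signal, 0 for no peak) by family, with filled circles for replicate 1, open triangles for replicate 2 and vertical lines at the median of all protein-coding genes, 1.31 and 1.41. H4 genes reach 11.77, while 9 genes of the H1, H2A and H2B families sit at 0 in both libraries.

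The 9 genes without a promoter peak fell into unlike sets. All 9 had no base in the window with a cut-rate false discovery rate under 0.05 in either library, against a median of 438 and 442 such bases over the 54 members in replicates 1 and 2. Hist1h1t, Hist1h2aa and Hist1h2ba are testis histone genes, known for their expression in male germ cells. Around the start of Hist1h1t no 36-base stretch of sequence occurs elsewhere in the genome. For Hist1h2aa 3.73% of such stretches do, and for Hist1h2ba 16.5%. Hist1h2ab, a core H2A gene, likewise had no peak, at 27.8%. A called peak was not detectable there at this depth, which does not show closed chromatin.

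A further 4 of the 9 lie in a copied segment. Around Hist1h2bq, Hist1h2ao, Hist1h2ap and Hist1h2br, 100% of the 36-base stretches within 500 bp of the start occur again in the genome, as did 100% of 76-base stretches. Hist1h2bq shares 99.8% of its stretches with Hist1h2br, and Hist1h2ao shares 96.9% with Hist1h2ap. The H4 genes of the same segment, Hist1h4m and Hist1h4n, were repeated over 95.8% and 96.7% of their stretches and still had peaks. Reads that match several places are often left out before peaks are called. How such reads were treated is not given in the sources used here, and the part of the copying in these missing peaks was not tested. Without the 6 members of the segment, a set chosen after their values were seen, 43 of 48 had a peak in both libraries.

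Outside the segment, peaks were called at promoters with many and with few repeated stretches. The 6 strongest H4 promoters were repeated over 17.0% to 24.3% of their stretches. Among H2A and H2B promoters with peaks the share was often higher, as in Hist1h2bp at 57.1% and Hist1h2ag at 48.3%.

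**Figure D2:**
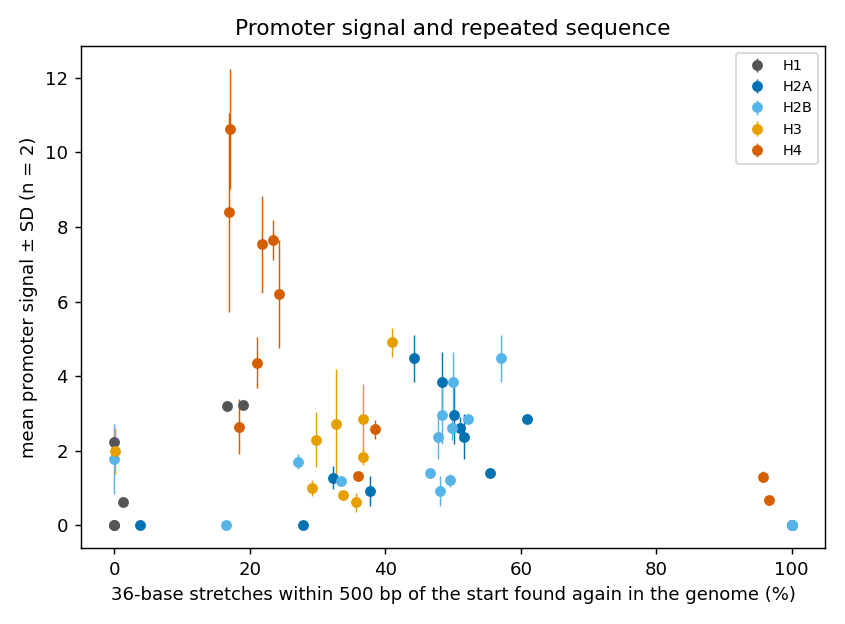
Mean promoter signal with SD over 2 libraries (y axis) against the percent of 36-base stretches within 500 bp of the start that occur again in the genome (x axis), 1 point per gene, coloured by family. The points at 100% all have a signal of 0, the H4 genes Hist1h4m and Hist1h4n near 96% keep low peaks, and the strongest H4 genes lie near 20%.

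For Hist1h1d the missing peak depended on the annotated start. Its GENCODE start lies 1770 bp upstream of the RefSeq start. At the RefSeq start, a choice made after seeing the data, a peak of 1.49 in replicate 1 and 2.16 in replicate 2 spanned the start, from chr13:23554901 on in both libraries. Hist1h2be had a similar difference. Its GENCODE starts are at 23621094 and 23621124, RefSeq also lists a start at 23585970, and its stem-loop lies beside that start at chr13:23585526-23585551. At the GENCODE starts Hist1h2be had 1.11 and 2.45, and at the RefSeq start at 23585970 it had 1.72 and 1.79.

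The cluster is not continuous. Its 54 genes form 4 blocks separated by gaps over 100 kb. The first, chr13:21715763-21837530, holds 18 genes, of which 14 had a peak, and its median signal over all members was 0.865 and 1.24 in replicates 1 and 2. The second, chr13:22035164-22043676, holds 5 genes, all with a peak, and a median of 3.29 and 4.41. The third, chr13:23531050-23764406, holds 29 genes, of which 26 had a peak, and a median of 2.11 and 2.81. The fourth, chr13:23933773-23934851, holds only the testis pair, with no peak. The copied segment lies in the first block, and 5 of the 6 strongest H4 genes lie in the third.

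**Figure D3:**
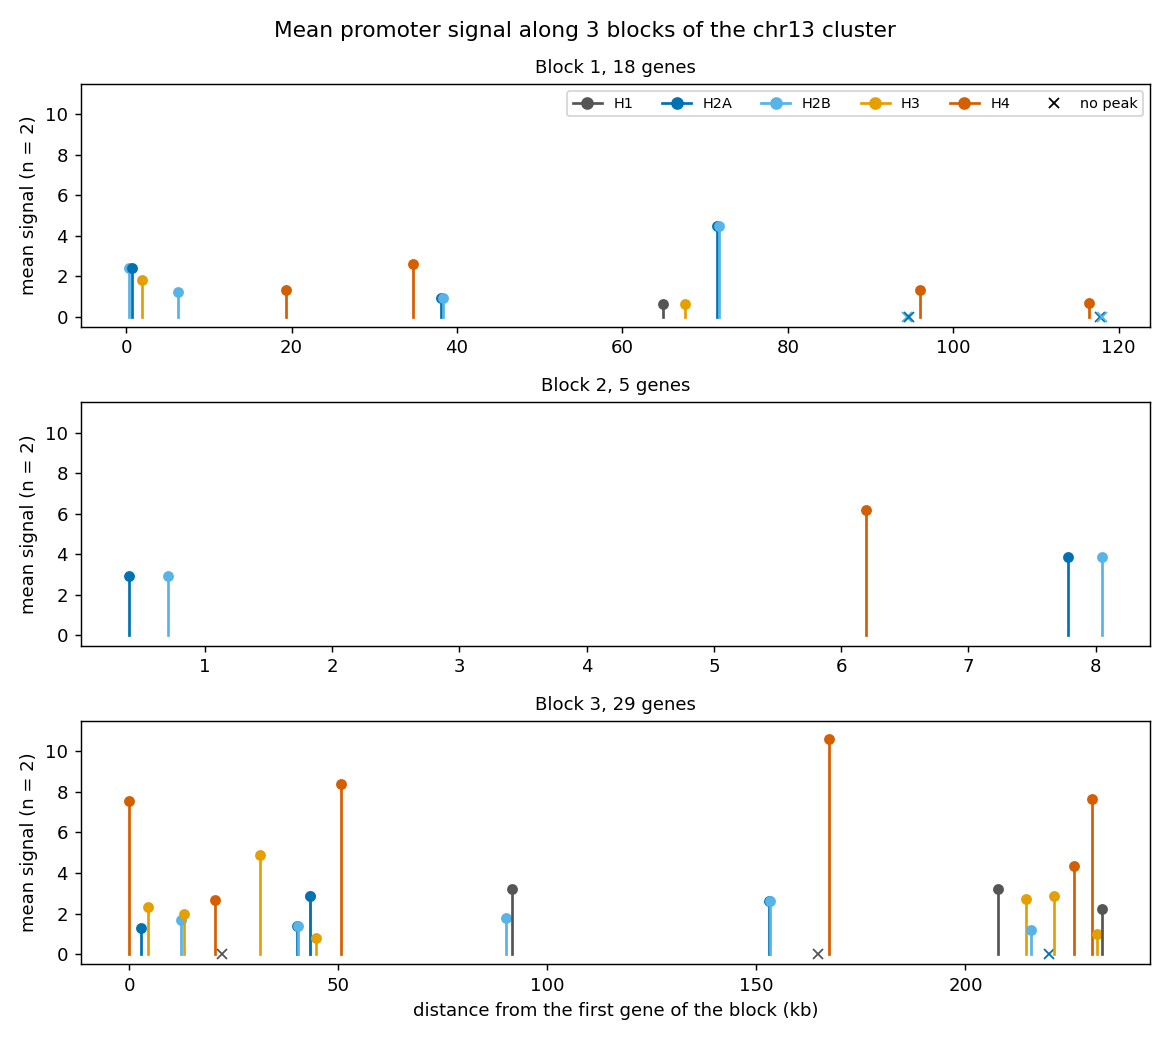
Mean promoter signal over 2 libraries (y axis) of each histone gene along the first 3 blocks of the cluster (x axis, kb from the first gene of the block), coloured by family, with crosses for genes with no peak. The tall H4 genes of the third block, up to a mean of 10.6, stand above most of their neighbours, and the crosses near the right end of the first block are the copied H2A and H2B genes.

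The gaps are filled by other genes, few of which were accessible. Of 49 non-histone protein-coding genes inside the span, 7 in replicate 1 and 9 in replicate 2 had a promoter peak, and many of the others are vomeronasal receptor genes. The strongest were Zfp322a, a zinc finger gene, with 6.36 and 6.26, Abt1 with 4.42 and 4.89, and Zfp184 with 2.77 and 2.57. Histone genes had a peak at 83.3% in each library, and the other genes of the span at 14.3% and 18.4%.

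Divergent pairs with a peak shared it, which follows largely from the window. Among the members, 12 pairs of genes run away from each other with starts within 1000 bp, 11 of them an H2A with an H2B gene and 1 an H2B with an H3 gene. In 9 of the 12, a peak touching both windows was called in each library. With 500 bp either side of each start, the windows of such a pair always overlap, so a peak between the starts touches both. Besides the leading pairs, Hist1h2bf and Hist1h2ad shared a peak of 2.83 in replicate 1 and 2.88 in replicate 2, with starts 185 bp apart. Hist1h2ac and Hist1h2bc shared one of 2.39 and 2.81, and Hist1h2bl and Hist1h2ai one of 1.95 and 2.81. The strongest peak shared by Hist1h2ae and Hist1h2bg had 1.40 in each library, and that of Hist1h2ak and Hist1h2bn 0.640 and 1.21. Hist1h2bh and Hist1h3f, with starts 660 bp apart, shared a peak of 1.56 and 1.85 that lies at the start of Hist1h2bh. The pairs without a peak were the copied pairs and the testis pair. A shared peak enters the values of both genes, so paired genes are not independent measurements. Of 24 members in pairs 18 had a peak, and of the 30 others 27 had one.

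Peaks lay mainly upstream of the GENCODE start. The centre of the strongest peak was upstream of the annotated start at 34 of 45 genes in replicate 1 and 36 of 45 in replicate 2, with a median of −68.5 and −72.5 bp. Median peak width was 210 and 200 bp at the histone promoters, and 220 bp in each library over all promoter peaks. Within 500 bp of the start, 28.2% and 29.2% of the upstream bases of the 54 genes lay in a peak in replicates 1 and 2, and 14.2% and 13.8% of the downstream bases. At other protein-coding genes the sides were alike, with 17.9% and 18.95% upstream and 17.4% and 18.6% downstream. Repeated sequence ran the opposite way at the histone genes, with 22.9% of 36-base stretches upstream and 52.6% downstream. The choice of start also moves these positions. Of 50 genes with a matched RefSeq start, 49 had one within 100 bp of the GENCODE start, more often upstream than downstream. Hist1h2be counts here by its RefSeq start at 23621094 and not by the distant one at 23585970. In Hist1h2ak the RefSeq start was at −85 bp and in Hist1h3c at 81 bp. A peak between the starts of a divergent pair lies upstream of both genes and counts for each. Of the 45 genes with a peak, 18 were in such pairs. The parts of pairing, of repeated sequence and of the annotated start in the one-sided profile were not tested.

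**Figure D4:**
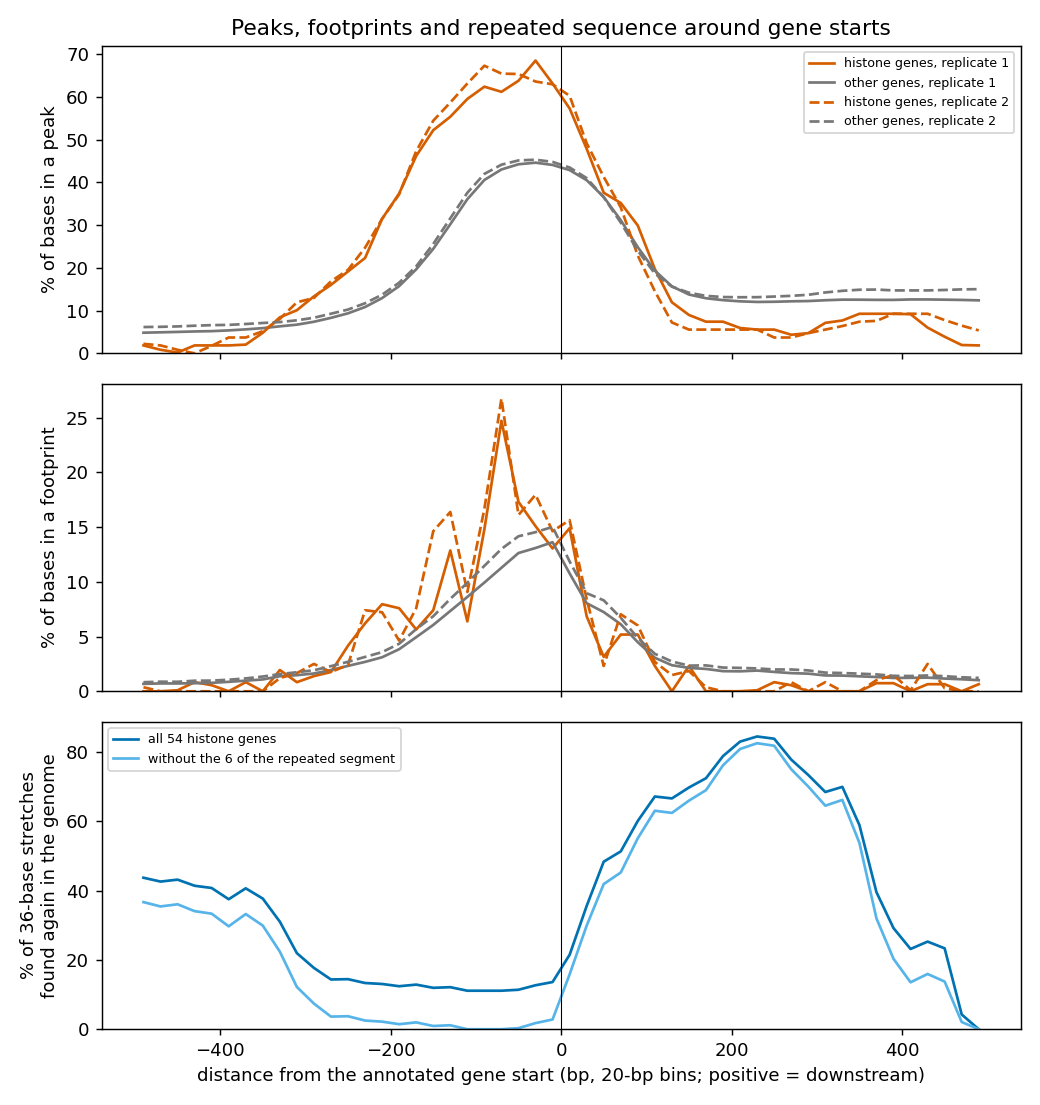
Percent of bases in a peak (top), in a footprint (middle) and percent of 36-base stretches that occur again in the genome (bottom) by distance from the annotated start in 20-bp bins, for the 54 histone genes and all other protein-coding genes in both libraries. Histone promoters reach 68.5% and 67.3% of bases in a peak upstream of the start, other genes 44.6% and 45.3%, and repeated sequence at the histone genes reaches 84.4% downstream.

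Footprints were called at 44 of the 54 histone promoters in replicate 1 and 45 in replicate 2, and at 44 in both. Over all protein-coding genes the shares were 60.1%, 61.8% and 58.6%. Bases from 80 to 61 bp before the start were in a footprint most often, at 24.7% in replicate 1 and 26.8% in replicate 2. At other genes the highest bin was from 20 to 1 bp before the start, at 13.6% and 15.02%. This difference in position is a description, with no test, and it depends on the GENCODE starts used.

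Motifs were searched as exact letters on both strands from 250 bp before to 50 bp after the GENCODE start, and a match is a description of sequence and not of binding. TATAAA, the letters of a TATA box, were found at 31 of the 54 histone genes, 57.4%, against 12.7% of all protein-coding genes. CCAAT was found at 44, 81.5%, against 39.0%, and at every H2A and H2B gene, 13 and 15. The octamer ATTTGCAT, the site of POU2F1, was found at 11, 20.4%, against 1.57%, and all 11 were H2A or H2B genes. TTTCGCGC, an E2F-type site, was found at 9, 16.7%, against 0.352%, again only at H2A and H2B genes, while TTTGGCGC, another such site, was at 0 of 54, against 0.691%. AAACACA, the H1 box, was found at 9, 16.7%, against 6.40%, and at 4 of 6 H1 genes. GGGCGG, the GC box, was found at 22, 40.7%, against 43.0%. Matches of different motifs may overlap each other on the sequence. Histone promoters had less G and C than others, with a median of 45.3% against 55%. Their ratio of observed to expected CpG was higher, at 0.772 against 0.524.

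The site II letters GGTCCG were found mostly in the H4 family. They were found at 13 of the 54 histone genes, 24.1%, against 9.59% of all protein-coding genes, and at 10 of 11 H4 genes, all but Hist1h4a. With 500 bp either side of the start the share was 27.8%, against 28.2% of all protein-coding genes. The H4 count stayed at 10 of 11 there. The median position of the 13 matches was −46 bp from the start, which is the RefSeq start for all of them but the match of Hist1h3f, read from its GENCODE start. A footprint touched them in both libraries at 5 H4 genes, Hist1h4b, Hist1h4c, Hist1h4d, Hist1h4h and Hist1h4i. Among all 6-base windows of the H4 promoters, 18.7% were touched in both libraries. The 5 H4 genes with such a footprint were the stronger ones, with signals from 3.89 to 9.48 in replicate 1 and from 4.84 to 11.77 in replicate 2. The other 5, Hist1h4f, Hist1h4j, Hist1h4k, Hist1h4m and Hist1h4n, had from 0.614 to 2.40 and from 0.760 to 3.16. A footprint needs cuts around it to be called, and the part of the signal in this split was not tested. In the sequences printed above, the capitals of Hist1h4c and Hist1h4i run through GGTCCG without a break, and those of Hist1h4d through GGTCCG and the TATA letters.

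Other motifs differed in how often footprints touched them. Of the distinct matches at promoters with a peak, footprints of both libraries touched 3 of 5 for TTTCGCGC, 8 of 20 for GGGCGG, 6 of 25 for TATAAA, 8 of 75 for CCAAT, 0 of 5 for the octamer and 0 of 7 for the H1 box. Windows of 5 to 8 bases anywhere in these promoters, over all families, were touched at 11.1% to 12.9%. CCAAT was the most frequent motif by gene, and its matches were touched at 10.7%, close to that level. Touched GGGCGG matches were mostly those of H4 genes, where 18.7% of all 6-base windows were touched. Counted per gene they were 7 of 12 in H4, 1 of 4 in H1, 0 of 4 in H2A and 0 of 1 in H2B. TATAAA lay at a median of 33 bp before the start, and the H1 box at 115 bp. At Hist1h2ag, TTTCGCGC lay 62 bp before the start and was touched by a footprint in both libraries. It can be read in reverse in the printed sequence of the pair, where not all of its bases are capitals.

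The cyclic AMP response element TGACGTCA was searched after it had been seen in the printed promoters, so its counts describe a pattern already noticed. It was found at 4 of the 54 histone genes, 7.41%, against 2.43% of all protein-coding genes. Its 4 distinct sites, 2 in Hist1h4a at 98 and 34 bp before the start, 1 in Hist1h4h at 70 bp and 1 shared by Hist1h2ag and Hist1h2bj, all lay under a footprint in both libraries. Hist1h4a is the H4 gene without GGTCCG.

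The other end of the genes holds the stem-loop that directs processing of the messenger RNA. Allowing up to 3 mismatches to the 16-base consensus, it was found in the gene or within 200 bp past its end at 52 of 54 genes, and 33 of these had no mismatch. Within 200 bp either side of the annotated end, the share was 64.8% of the histone genes and 0.416% of all protein-coding genes. The copies below, with the 16 bases in capitals and 5 bases on either side, show the core form in Hist1h2ai (chr13:21716834-21716859, plus strand), the form with changed stem bases in Hist1h4c (chr13:23698084-23698109, minus strand), and Hist1h4b (chr13:23757361-23757386, plus strand), which had 4 mismatches and was outside the limit.
Hist1h2ai: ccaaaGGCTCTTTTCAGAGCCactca
Hist1h4c: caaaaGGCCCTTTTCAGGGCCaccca
Hist1h4b: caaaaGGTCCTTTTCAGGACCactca
Every H4 gene differed from the consensus at 2 bases or more, and the testis gene Hist1h2aa, which had no peak, held it without a mismatch.

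Most histone genes had more signal in replicate 2 than in replicate 1. Of the 45 genes with a peak in both libraries, 37 had more signal in replicate 2 and 8 had less, against 58% of all protein-coding genes with more in replicate 2. As a log2 ratio of replicate 2 over replicate 1, the median was 0.31 over the histone genes and 0.06 over all genes, whose ratios had an SD of 0.32 across genes. Relative to the median of all genes, the histone median was 0.25. That SD is a spread of single genes, so it does not gauge the shift of a median. Of the 45 histone genes 26 lay within 1 SD, against 71.9% of all genes. Paired genes enter their shared peak 2 times, and with each distinct peak counted once the median over 37 was also 0.31. With 1 library on each side no test was possible.

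By family, the median log2 ratio was −0.05 for H1, 0.42 for H2A, 0.29 for H2B, 0.64 for H3 and 0.31 for H4. Hist1h3c had the largest difference, with 3.76 in replicate 2 and 1.70 in replicate 1, a log2 ratio of 1.15, in a peak of the same position. Hist1h2be had a log2 ratio of 1.14, but from different peaks. The peak that led in replicate 2 reached into the window by its last bases and was also called in replicate 1, at 2.11, just outside the window, while the peak at the start had 1.45 in replicate 2 and 1.11 in replicate 1. Hist1h3f, whose log2 ratio of 0.64 is the H3 median, also compared different peaks. Its strongest peak in replicate 2 lay 289 to 528 bp past the start, with 2.44 there and 1.48 in the replicate 1 peak at the same place, while its strongest in replicate 1 was the peak at the start of Hist1h2bh. Hist1h2ak and Hist1h2bn, which share a peak, had 1.21 in replicate 2 and 0.640 in replicate 1, a log2 ratio of 0.92. The smallest ratios were −0.16 at Hist1h3e, −0.15 at Hist1h1b and −0.15 at Hist1h4j. Limited to the 43 genes whose strongest peaks in the libraries overlapped, a choice made after seeing the data, 35 had more signal in replicate 2, with a median of 0.29 overall and 0.55 for H3. Of 6 markers of proliferating cells, 5 were higher in replicate 2, with a median log2 ratio of 0.13, and of 8 urothelial markers 1 was higher, with a median of −0.23. The part of the cell makeup of the tissue samples in these differences was not tested.

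**Figure D5:**
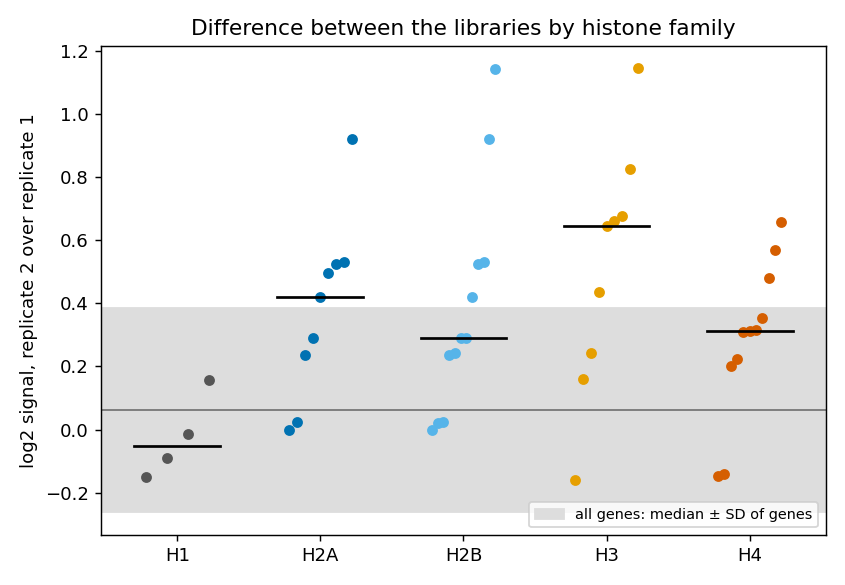
Log2 ratio of promoter signal, replicate 2 over replicate 1 (y axis), for each histone gene with a peak in both libraries, by family, with black bars at family medians and a grey band at the median of all protein-coding genes, 0.06, plus and minus their SD of 0.32. H3 has the highest median at 0.64 and H1 the lowest at −0.05, and the points of Hist1h2be at 1.14 and Hist1h3f at 0.64, the H3 median, compare different peaks.

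The regulators of these genes were all accessible. Each of the 12 regulator genes had a promoter peak in both libraries, against 61.4% of all protein-coding genes. Their medians were 5.89 and 5.55, against 3.89 and 4.84 for H4 genes and 3.30 and 3.43 over all genes with a peak. By the mean of both libraries the strongest was Casp8ap2, a protein of histone locus bodies and of histone messenger RNA processing, with 9.61 in replicate 1 and 10.6 in replicate 2, while Npat was first in replicate 1 and Ccne1 in replicate 2. Ccne1, a cyclin E gene whose kinase acts on NPAT, had 8.71 and 10.8, its partner kinase gene Cdk2 had 5.38 and 4.73, and the other cyclin E gene Ccne2 had 2.00 and 2.18. Npat had 10.6 and 8.48, and Hinfp, which encodes the site II factor, had 9.60 and 7.67. Of the genes for RNA processing, Slbp had 5.95 and 5.43, Lsm11 5.82 and 7.91, Lsm10 5.82 and 5.66, and Zfp473 6.11 and 4.67. Pou2f1, which encodes the octamer factor, had 5.82 and 5.17, and E2f1 had 5.47 and 4.41. Of the 12, 4 had more signal in replicate 2 and 8 had less, while 37 of 45 histone genes of chromosome 13 had more.

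Other histone genes had peaks about as often as the 83.3% of the chromosome 13 genes, or more often. Of the 13 genes of the smaller Hist2h, Hist3h and Hist4h clusters, 11 had a peak in both libraries, 84.6%. By the mean the H4 genes led there too, with Hist2h4 at 6.54 and 9.01 and Hist4h4 at 6.31 and 8.96, followed by Hist2h2aa2 at 6.69 and 7.34, which was above both in replicate 1, while Hist2h3c1 and Hist2h3c2 had no peak. All 11 replication-independent histone genes had a peak in both libraries, against 61.4% of all protein-coding genes. Their medians were 5.73 and 5.34, against 3.30 and 3.43 over all genes with a peak. Their highest means were those of H2afv with 9.03 and 9.79, H2afx with 7.89 and 9.09, and H2afj with 7.44 and 9.35, though in replicate 1 H2afz, with 8.18 and 7.73, was second.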

How the data were processed

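DNase-seq libraries of urinary bladder, 2 of 1 group, were used as deposited, per library and not pooled, on mm10 per the deposited file listing. Sources used here name neither the aligner nor the callers. The deposited peak signal was a whole multiple of 1 step per library (0.00853 in replicate 1, 0.00884 in replicate 2) for 100% of peaks. Its scaling is not stated. The authors deposited a false discovery rate on the p-value scale per stretch of cut rate. The deposited footprint lists carry the same p-value, 0.01, in every row.

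The longer peak list was used, with chromosomes 1 to 19, X and Y, starts of 54361 protein-coding transcripts of GENCODE M21, and an overlap of at least 1 bp. Log2 ratios needed no pseudocount. Repeated sequence was counted as 36-base and 76-base stretches found again on either strand of GRCm38.p6. Members were matched to RefSeq through synonyms. Motif presence was read at GENCODE starts, and motif positions and footprint cover at RefSeq starts, or at GENCODE starts for Hist1h2be and the 4 genes with no RefSeq start matched. The background is all protein-coding genes. With 1 group there are no tests between groups. Matching peaks to windows, reading their signal and reverse complementing were tested on simulated data. The motif, stem-loop and repeat searches and the footprint cover were not. Python 3.11.15, NumPy 2.4.6, pandas 2.3.3 and Matplotlib 3.10.9 were used.

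Members and lists were chosen with earlier results of these data known. Named genes are, per family, the 3 with the highest mean and those without a peak, the 3 largest and 3 smallest ratios, all shared pairs, all regulators, and the top 3 and peakless genes of the other lists. Other H1, H3, H4 and H2B genes were named after their values were seen. Alternatives covered the window, the list, the starts, the overlap rule, the motif window and each library alone.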

Additional observations from a re-analysis of the deposited data

How the results depend on the processing

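The counts of genes with a peak or footprint, the median signal, the median log2 ratio and the count with any motif were recomputed 41 times. In 40 of these, counts stayed within 1.5 times and values moved by less than 1 SD. The exception changes the unit: as a percentile among all peaks of the library, the median over members was 82.9. The SD was that between the libraries for the median signal, 0.537, and that across genes for the log2 ratio, 0.32. Both limits are wide, since the first grows with the difference between the libraries and the second exceeds the median ratio of 0.31. Staying within them therefore says little. The count with any motif began at 54 of 54, so wider windows could not lower it. With each library left out, members with a peak stayed at 45, members with a footprint were 44 to 45, and the median signal was 1.68 to 2.44. The shorter list, or equal numbers of the strongest peaks (42296 per library), left 39 members with a peak in both. The share over all protein-coding genes was not recounted with these lists, so whether the excess of the histone genes holds there was not tested. Of 24 recounts of 8 motifs, judged by histone gene counts alone, 2 moved, both with 500 bp either side of the start. The H1 box was then at 14 genes, 25.9%, against 20.6% of all protein-coding genes, and the GC box at 45, 83.3%, against 60.4%. RefSeq starts, overlapping strongest peaks and the set without the copied segment were added after seeing the data. No paired analysis was possible because the series has 1 group. Precision is limited by 2 libraries and by an unknown total depth, and a gene without a called peak may still have been cut.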
